A study of Arabidopsis thaliana with 6 samples.

Results

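TOC1 and its relatives PRR9, PRR7 and PRR5 are the pseudo-response regulators read here, 4 genes in seedlings of a TOC1 overexpressor (TOC1-ox) and of the wild type (WT) of Arabidopsis thaliana. They were found on the array by the probe set IDs 247525_at (TOC1, AT5G61380), 266720_s_at (PRR9, AT2G46790), 250971_at (PRR7, AT5G02810) and 249741_at (PRR5, AT5G24470), 4 of 22746 probe sets tested. The gene annotation used for the other probe sets lists none of these 4 IDs, so their names rest on the ID alone. The ending _s_at marks a probe set whose probes are shared between transcripts, so the PRR9 value may include a near-identical transcript.

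TOC1-ox and WT seedlings, 3 arrays each, were of ecotype Col0, 12 days old, and had grown on MS3 medium under 12 h of light and 12 h of darkness a day. Both were harvested at zeitgeber time 15, which counts hours from lights on and falls in the dark. The series calls the 3 samples of a group biological replicates. No source used here names the promoter or construct behind the overexpression or the number of lines, and the TOC1 probe set does not tell transcripts of the added copy from those of the resident gene.

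Pseudo-response regulators resemble the response regulators of two-component signalling, but their receiver-like domain lacks the aspartate that accepts the phosphate. At the other end they carry a CCT domain, which is shared with CONSTANS and binds DNA. In the plant clock they act as repressors of the morning genes CCA1 and LHY, and their transcripts peak one after another through the day, PRR9 in the morning, then PRR7 and PRR5, with TOC1 (also called PRR1) near dusk. At a night harvest the early members are therefore known to be low in the wild type.

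TOC1 was the only member of the 4 that differed between the groups by the test across all probe sets. Its log2 values were 14.26, 14.32 and 13.79 in TOC1-ox replicates 1 to 3, against 8.40, 8.80 and 8.48 in WT replicates 1 to 3. All 3 TOC1-ox arrays lay far above all 3 WT arrays, with a gap of 4.99 between the lowest TOC1-ox and the highest WT value. The spread inside the groups was small beside this, with a range of 0.53 in TOC1-ox and 0.40 in WT. Means were 14.12 ± 0.29 in TOC1-ox and 8.56 ± 0.21 in WT (SD, n = 3 each), a log2 difference of 5.56 ± 0.19 (standard error). TOC1 was thus 47.3-fold higher in TOC1-ox, with a 95% interval of 33.8 to 66.1 (limma, adjusted p = 0.00594). An exact two-sided permutation test over the arrays gave p = 0.1, the smallest that 3 against 3 arrays allow. As a check on the labels, the 3 arrays labelled TOC1-ox thus held the 3 highest TOC1 values.

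Among all probe sets TOC1 stood near the end of the distribution. In the same fit 245 probe sets (1.08%) were called higher in TOC1-ox and 160 (0.703%) lower, at a Benjamini-Hochberg adjusted p under 0.05. Only 3 probe sets rose by more than TOC1, and the WT mean of 2 of these lay under 4, where the log2 scale is compressed. TOC1 was measured well clear of that zone in WT. At the upper end its TOC1-ox values stayed at least 1.14 below the highest value on their own array, which lay between 15.40 and 15.46.

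**Figure D1:**
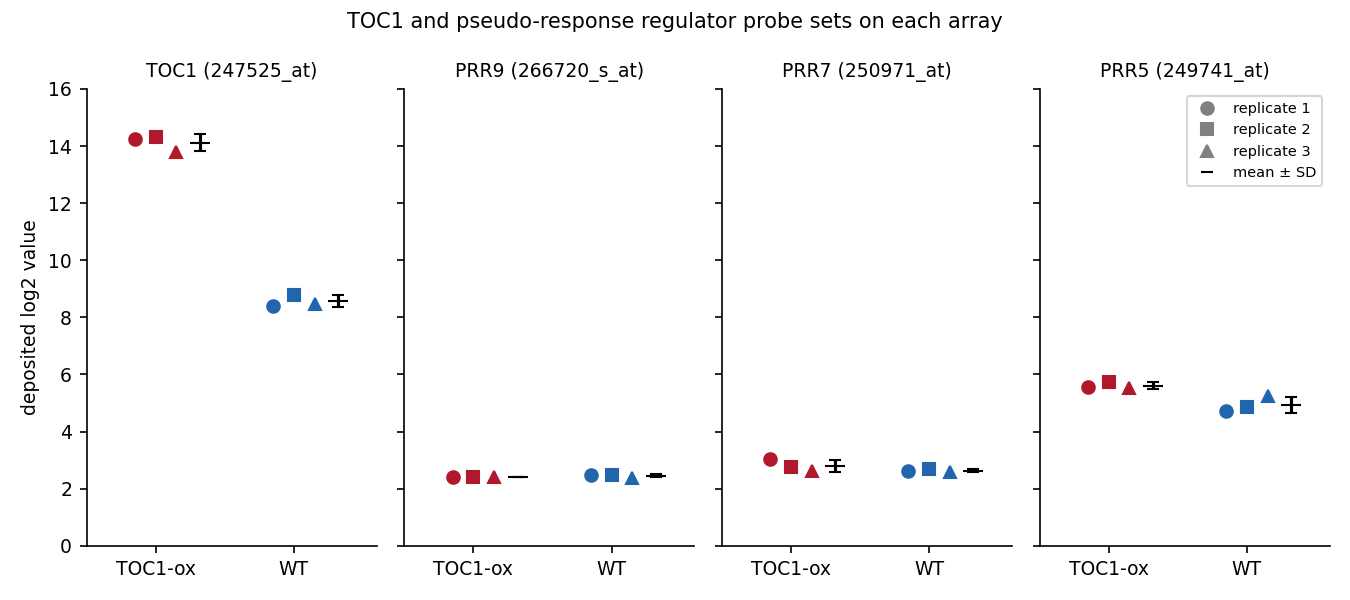
Deposited log2 value (vertical axis) of TOC1, PRR9, PRR7 and PRR5 on each array, TOC1-ox left and WT right in each panel; symbols mark the replicate and bars the mean ± SD of 3 arrays. TOC1 lies between 13.79 and 14.32 in TOC1-ox and between 8.40 and 8.80 in WT, PRR5 is separated by a small gap, and PRR9 and PRR7 lie between 2.39 and 3.03 on all arrays.

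PRR5, an evening-side repressor whose protein also moves TOC1 into the nucleus, was somewhat higher on every TOC1-ox array but did not pass the test. Its log2 values were 5.56, 5.74 and 5.53 in TOC1-ox, against 4.71, 4.85 and 5.25 in WT. The groups did not overlap, but the gap between them was 0.28, less than the range of 0.54 among the WT arrays. Means were 5.61 ± 0.12 in TOC1-ox and 4.94 ± 0.28 in WT (SD, n = 3 each), and the log2 difference was 0.67 ± 0.16 (standard error), or 1.59-fold. The 95% interval of this difference, not corrected for the number of probe sets, ran from 0.26 to 1.08, and limma's adjusted p was 0.131. The exact two-sided permutation p was 0.1, again the smallest possible with 3 against 3 arrays. Groups without overlap were common in these data, at 20.1% of all probe sets and 9.27% in the upward direction, and 14.0% of probe sets differed by at least as much as PRR5. Of the 4 members, TOC1 and PRR5 had groups without overlap.

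The PRR5 difference was smaller with WT replicate 3 than without it, at 0.67 against 0.83. With each other array left out in turn it ran from 0.56 to 0.71 (limma, adjusted p of 0.0947 to 0.352). WT replicate 3 had the highest PRR5 value of the WT arrays, 5.25. The bacterial transcripts spiked in to control the labelling also set both arrays numbered 3 apart. The median of these 24 spike-in probe sets was 7.01 in TOC1-ox replicate 3 and 7.59 in WT replicate 3, against 2.81 to 4.84 on the other 4 arrays. Among the arrays numbered 1 and 2 only, PRR5 differed by 0.87 (limma, adjusted p = 0.0502, in a fit that called 9.68% of all probe sets), while the arrays numbered 3 differed by 0.28. For TOC1 the same values were 5.69 (adjusted p = 0.0147) and 5.31. With all arrays kept and a term for the arrays numbered 3, PRR5 differed by 0.67 and did not pass (limma, adjusted p = 0.128). That fit called 2.50% of all probe sets. With arrays weighted by their agreement with their group, PRR5 passed, with a difference of 0.84 (limma, adjusted p = 0.0060), in a fit that called 27.2% of all probe sets and gave WT replicate 3 the lowest weight. Whether the labelling bears on the PRR5 value was not tested.

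PRR7 acts with PRR9 as a daytime repressor of CCA1 and LHY, and its probe set read low on the scale whatever the genotype. Its log2 values were 3.03, 2.76 and 2.62 in TOC1-ox, against 2.62, 2.68 and 2.58 in WT. The groups overlapped, since TOC1-ox replicate 3 matched WT replicate 1. The log2 difference was 0.18 ± 0.12 (standard error, n = 3 each), with a 95% interval of -0.12 to 0.48 (limma, adjusted p = 0.573), and the exact two-sided permutation p was 0.2. Without TOC1-ox replicate 1, the highest array, it was 0.06 (limma, adjusted p = 0.952).

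PRR9, the morning member, was likewise read near the bottom. Its values were 2.41, 2.42 and 2.42 in TOC1-ox, against 2.48, 2.47 and 2.39 in WT. All TOC1-ox values lay inside the WT range. The difference was -0.03 ± 0.04 (standard error, n = 3 each; limma, adjusted p = 0.861; exact two-sided permutation p = 0.4), with a 95% interval of -0.14 to 0.08. Of all probe sets, 20.4% had a lower mean over the 6 arrays than PRR9 and 26.9% a lower mean than PRR7.

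The shape of the PRR9 values over the arrays was close to the median shape of dim probe sets. The 6906 probe sets with a mean under 3 (30.4% of all) had a small median pattern. It was slightly below their own mean in TOC1-ox, slightly above that mean in WT replicates 1 and 2 and lowest in WT replicate 3. Of these probe sets, 11.5% followed the pattern at r of 0.99 or more, against 0.03% of probe sets with a mean of at least 6. PRR9 followed this median pattern at r = 0.98 over the 6 arrays, PRR7 at -0.05, PRR5 at -0.63 and TOC1 at -0.25. As many as 816 probe sets correlated with PRR9 at 0.99 or more, and 99.0% of them had a mean under 3. These correlations describe 6 arrays and are not tests. PRR9 was read low on the scale, where differences are compressed, so the interval given for it does not limit the size of a transcript change. Whether its transcript changed below that level was not tested.

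**Figure D2:**
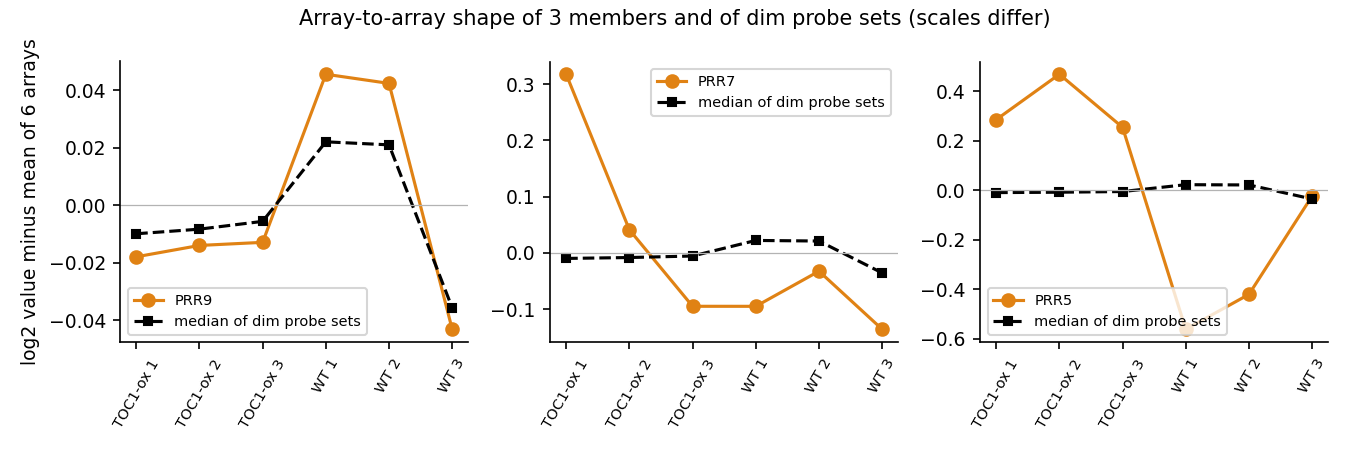
Log2 value on each array minus the mean of the 6 arrays for PRR9, PRR7 and PRR5 (orange), with the median over the 6906 probe sets with a mean under 3 (black, dashed); the vertical scales differ between panels. PRR9 follows the dim pattern (r = 0.98), with all of its departures under 0.05, while PRR7 is raised on TOC1-ox replicate 1 and PRR5 on all TOC1-ox arrays.

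Counted together, 1 of the 4 members was called higher, none lower, and 3 were not called. The count of calls over all probe sets was 1.78% in either direction. The median difference of the members was 0.42, against -0.02 over all probe sets, and it lies between that of PRR5 and that of PRR7. At an unadjusted p under 0.05 there were 2 members, TOC1 and PRR5, against 16.4% of all probe sets. The 1 member called was TOC1, the overexpressed gene itself, and it enters the median and both counts. They therefore do not describe its relatives alone, and the 3 relatives were the members not called.

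**Figure D3:**
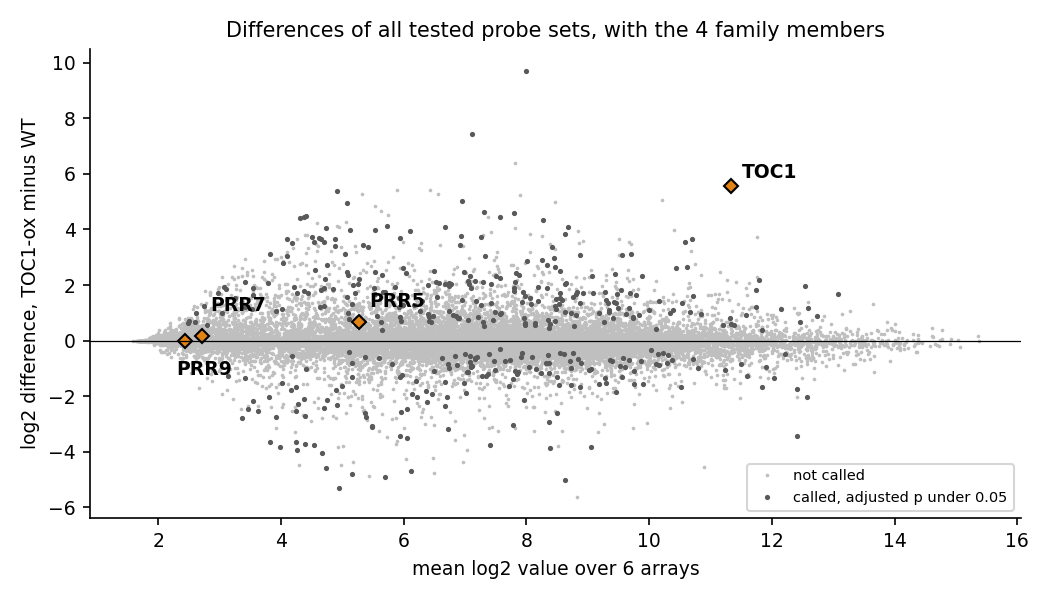
Log2 difference, TOC1-ox minus WT (vertical axis), against the mean log2 value over the 6 arrays (horizontal axis) for 22746 probe sets; dark points were called at an adjusted p under 0.05 and diamonds are the 4 members. TOC1 lies high and to the right at 5.56, while PRR9 and PRR7 sit in the narrow left end, where differences are compressed.

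TOC1-ox replicate 3 differed from its group in much of the transcriptome, and its TOC1 value was the lowest of its group. On the first principal component, which held 61.2% of the variance, it lay at 7.34, between TOC1-ox replicates 1 and 2 at 66.2 and 63.3 and the WT arrays at -51.2 to -40.6. Its TOC1 value was 5.23 above the WT mean, or 37.5-fold. In TOC1-ox replicates 1 and 2 it was 5.70 and 5.76 above that mean, or 52.0-fold and 54.2-fold. In log2 terms replicate 3 thus held 91.2% of the TOC1 departure of the other two. For PRR5 it held 82.8%, at 0.59 against 0.62 and 0.80. Shares were taken only for members whose groups did not overlap, a choice that uses replicate 3 itself. PRR7, left out by it, had replicate 3 at -0.007 from the WT mean, against 0.41 and 0.13 in replicates 1 and 2.

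Other transcripts departed less on that array. A limma fit that leaves out TOC1-ox replicate 3 gave 1603 higher calls, which were chosen with no use of its values. Replicate 3 held a median of 32.6% of their departure (quartiles 3.12% and 66.6%), and it lay below the WT mean at 346 of them. A larger share than that of TOC1 was seen at 12.6% of them. The choice favours large values in replicates 1 and 2, which can lower these shares, so they are given as a description.

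**Figure D4:**
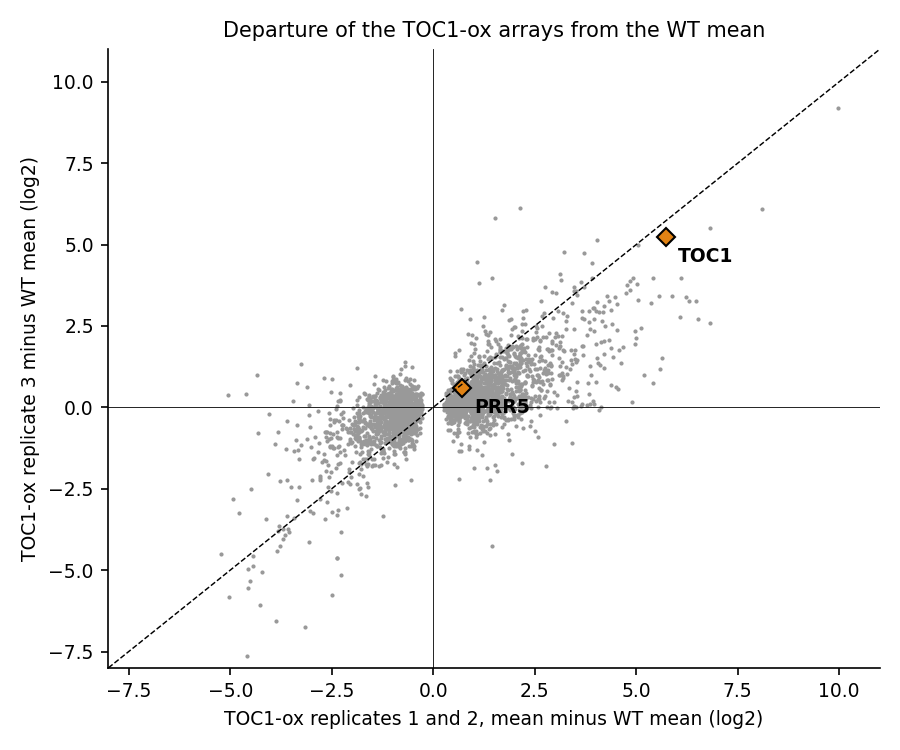
Departure of TOC1-ox replicate 3 from the WT mean (vertical axis, log2) against the mean departure of TOC1-ox replicates 1 and 2 (horizontal axis, log2) for the 2955 probe sets called without replicate 3 (grey, TOC1 among them) and for PRR5, which was not called in that fit; diamonds mark TOC1 and PRR5, and the dashed line marks equal departures. TOC1 (5.73 and 5.23) lies close to the line and PRR5 (0.71 and 0.59) near it, while many of the grey points fall closer to 0 on the vertical axis.

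The transcripts whose 6 values ran most like those of TOC1 were those of TRM24, JAL23 and AT3G15310, at r = 0.998, 0.992 and 0.991, among 2948 probe sets with 1 listed gene, a mean of at least 4 and a range of at least 1. TRM24, of the family that recruits the TON1 protein to microtubules, had values of 5.30, 5.31 and 5.22 in TOC1-ox, against 3.55, 3.52 and 3.40 in WT. JAL23, a jacalin-related lectin, had 6.77, 6.89 and 6.12 in TOC1-ox, against 2.94, 3.10 and 3.48 in WT. All 3 were higher in TOC1-ox without overlap, which a profile close to that of TOC1 requires. The WT means of these 3 genes lay under 4, so the sizes of their differences are not well defined.

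The transcripts most like PRR5 shared its high WT replicate 3, which a profile close to that of PRR5 requires. AT5G03610 and AT4G26790, both of the GDSL esterase and lipase family, and AT3G61820, an aspartyl protease gene, correlated with PRR5 at r = 0.998 each. AT5G03610 had 8.78, 8.98 and 8.82 in TOC1-ox, against 7.92, 8.08 and 8.47 in WT. Like PRR5, none of the 3 passed (limma, adjusted p = 0.119, 0.149 and 0.15). For PRR7 the closest were AT4G02090, AT1G22030 and AT2G31725 (r = 0.957, 0.955 and 0.946), with their highest value on TOC1-ox replicate 1. For PRR9 they were SGT1A, a co-chaperone gene, AT4G18740 and AT3G07470 (r = 0.976, 0.972 and 0.971), all lowest on WT replicate 3 and not called. The arrays on which these matches to PRR7 and PRR9 are highest or lowest likewise follow from choosing by correlation.

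Genes that work with the family or share a domain with it were read from 9 lists with 123 members, of which 16 (13.0%) could be measured under a name. Of the 16, none was called higher and 1 was called lower, COR27; over all probe sets 1.78% were called. At an unadjusted p under 0.05 limma gave 1 higher and 4 lower, where 16.4% of all probe sets passed. Their median difference was -0.23, against -0.02 over all probe sets, and 7 of 16 had groups without overlap, against 20.1% of all probe sets. The lists of phytochrome-interacting factors, TOPLESS corepressors, CBF and ABA-related outputs, and two-component kinases, with 37 members in all, had no measured member.

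**Figure D5:**
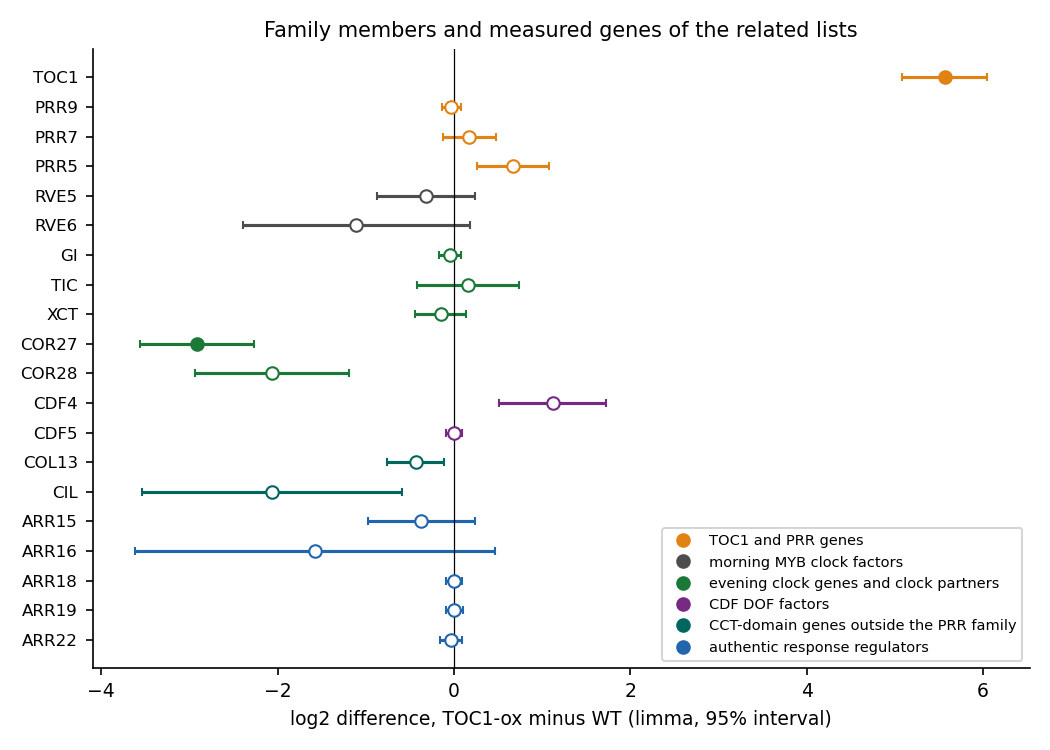
Log2 difference, TOC1-ox minus WT (horizontal axis), with limma's 95% interval, not corrected for multiple tests, for the 4 members and the 16 measured genes of the related lists; filled points were called at an adjusted p under 0.05. TOC1 at 5.56 and COR27 at -2.92 are filled, and all others are open.

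COR27, a night repressor of PRR5 and TOC1 transcription, had log2 values of 7.19, 7.17 and 6.40 in TOC1-ox, against 9.88, 9.99 and 9.63 in WT. It fell by 2.92 ± 0.25 on the log2 scale (standard error, n = 3 each; limma, adjusted p = 0.0213). This call ended when any array other than TOC1-ox replicate 3 was left out, with adjusted p of 0.0631 to 0.103. In those fits the difference was -2.84 to -3.05, and 0.035% to 0.83% of all probe sets were called, against 1.78% with all arrays. Its relative COR28, which shares this role, had 5.97, 6.87 and 5.73 in TOC1-ox, against 8.30, 8.49 and 7.97 in WT (difference -2.06, adjusted p = 0.064). All TOC1-ox values of both genes lay below all WT values.

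The other measured clock genes gave no call. RVE5, a MYB-like factor related to CCA1, had 6.74, 7.02 and 6.26 in TOC1-ox, against 7.17, 6.90 and 6.90 in WT (difference -0.31, limma adjusted p = 0.596). RVE6, another of this family and an activator of evening genes, had 6.28, 6.43 and 4.69 in TOC1-ox, against 7.03, 6.92 and 6.77 in WT. Its difference was -1.11 (adjusted p = 0.374), and -0.55 without TOC1-ox replicate 3. The clock regulator TIC had 10.18, 10.28 and 9.49 in TOC1-ox, against 9.81, 9.75 and 9.90 in WT (difference 0.16, adjusted p = 0.855), so that TOC1-ox replicate 3 was the lowest array and replicates 1 and 2 the highest. XCT, which encodes a nuclear protein needed for normal clock period, differed by -0.15 (adjusted p = 0.625). GI, a partner of the ZTL photoreceptor that targets TOC1 protein for breakdown, read at 1.90, 1.90 and 1.91 in TOC1-ox, against 2.01, 1.94 and 1.89 in WT, at the bottom of the scale.

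CDF4, a DOF factor of a group whose genes the PRR proteins are known to repress, was higher on all TOC1-ox arrays without passing. Its values were 7.10, 7.37 and 6.53 in TOC1-ox, against 5.97, 5.96 and 5.72 in WT, a difference of 1.12 ± 0.23 (standard error, n = 3 each; limma, adjusted p = 0.103). CDF5, of the same group, read about 1.80 on all arrays.

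The CCT-domain and response-regulator relatives gave no call either. COL13, a CONSTANS-like gene, had 8.03, 8.17 and 8.01 in TOC1-ox, against 8.43, 8.32 and 8.75 in WT (difference -0.44, adjusted p = 0.189). CIL, related to the chloroplast import regulator CIA2, had 3.69, 3.60 and 5.37 in TOC1-ox, against 6.09, 6.85 and 5.91 in WT (difference -2.06, adjusted p = 0.177). ARR16, a cytokinin-responsive type-A regulator, had 3.34, 3.44 and 5.81 in TOC1-ox, against 6.49, 5.60 and 5.22 in WT (difference -1.57, adjusted p = 0.427). In ARR16, TOC1-ox replicate 3 lay within the WT range, and in CIL it lay 0.54 below it. ARR15, also type-A, had 2.40, 2.63 and 2.66 in TOC1-ox, against 2.66, 3.44 and 2.70 in WT. These values lie low on the scale. Its difference was -0.37 (adjusted p = 0.557), and -0.12 without WT replicate 2. ARR18, ARR19 and ARR22 lay between 2.15 and 2.55 on all arrays. Without TOC1-ox replicate 3, limma called 7 of the 16 list genes (RVE6, TIC, COR27, COR28, CDF4, CIL and ARR16), in a fit that called 13.0% of all probe sets.

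Markers of green tissue were high on all arrays. RCA and LHCB4.1, 2 of 10 listed markers, averaged between 13.83 and 14.42 in TOC1-ox and between 13.65 and 14.17 in WT. They differed by 0.45 and -0.12 (limma, adjusted p = 0.654 and 0.723), and the groups of both overlapped. None of the root markers was called. EXPA7, EXPA18 and BGLU23, 3 of 8 listed, averaged 9.43 to 9.96 in TOC1-ox and 8.84 to 9.38 in WT. EXPA7 and EXPA18, root-hair expansins, differed by 0.84 and 0.94 (limma, adjusted p = 0.129 and 0.266), with groups that did not overlap. BGLU23, a root beta-glucosidase, differed by 0.04 (adjusted p = 0.94), with groups that overlapped. The lowest value of any of these green and root markers was 5.45. Their part in the PRR5 difference was not tested, and in whole seedlings more cells of a type cannot be told apart from more RNA per cell. Markers of seeds (11) and flowers (4) are not analysed here, since none could be measured under a name.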

How the data were processed

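Total RNA of 3 TOC1-ox and 3 WT seedling samples was labelled from 1 µg of RNA and hybridised to Affymetrix arrays, per the labels' protocols. The authors deposited 1 table of log2 values for 22810 probe sets; the tools they name, per the submitters' processing notes, are GCRMA and limma, with no versions. GCRMA corrects background, normalizes by quantiles and compresses dim probe sets, and 36.5% of values lay under 4. Groups came from sample titles. Control probe sets (64) were left out, and 22746 were fitted with limma 3.58.1 in R 4.3.3 (group as the only term, two-sided, Benjamini-Hochberg over all, call at 0.05). Array data have no depth; the number of arrays limits the precision.

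The 4 members were found by probe set ID. Other names came from the platform annotation, updated by gene identifier (13513 probe sets with 1 gene, 503 with several, 8730 with none listed). Members and lists were chosen with earlier results of these data known. Named genes were the members, all measured clock-list genes, up to 4 called or else the 2 most different of each other list, and the 3 most correlated with each member. ARR18, ARR19 and ARR22, the other measured response regulators, and the nearest measured neighbours on the chromosome were named as well. The dim pattern and the shares of replicate 3 were added after the data were seen. Root and green markers are named with all measured members. The procedure was tested on simulated data. Alternatives covered normalization, filters, variance models, array weights, the replicate block, the arrays numbered 3 and each array left out. Same-numbered arrays deviated from their group means with correlations of 0.30, -0.01 and 0.08, and were not treated as pairs.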

Additional observations from a re-analysis of the deposited data

How the results depend on the processing

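TOC1 was called in 15 of 16 alternatives and PRR9 and PRR7 in none of 14; no member changed sign. With each array left out in turn the difference of TOC1 ran from 5.46 to 5.73, with limma's adjusted p from 0.0016 to 0.0425, so 1 of the 4 members was called each time. With the replicate number as a block, TOC1 differed by 5.56 with an adjusted p of 0.0603, and 0 of 22746 probe sets, 0 members and 0 list genes were called (4317 had an unadjusted p under 0.05, against 3725 without the block). The block takes up residual degrees of freedom, and the labels do not say that equal numbers are paired. PRR5 was called with array weights only, at a difference of 0.84, and 2 members were then called; over all 15 alternatives its difference ran from 0.56 to 0.87 and its adjusted p from 0.0060 to 0.352.

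Calls over all probe sets, 405 with 245 higher and 160 lower, moved more. Quantile normalization gave 248 (153 higher, 95 lower), array weights 6182 (2877 and 3305), the arrays numbered 1 and 2 only 2201 (1170 and 1031), a mean of at least 4 gave 852 (519 and 333) and of at least 6 gave 641 (378 and 263). A robust prior gave 262 with 97 lower, centred arrays 253 lower, a term for the arrays numbered 3 gave 254 lower, and a 2-fold minimum 101 lower. With each array left out the calls ran from 8 (without WT replicate 2) to 2955 (without TOC1-ox replicate 3), with 5 to 1603 higher and 3 to 1352 lower. Of the list genes, 1 was called, 2 with centred arrays, a variance trend or the term for the arrays numbered 3, 3 with either filter or the arrays numbered 1 and 2 only, 5 with array weights, and 0 to 7 with an array left out, 7 without TOC1-ox replicate 3 and 0 without each other array. The cause was not tested. No list gene had more than 1 probe set, so their mean gave nothing further.

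Some differences at the bottom of the scale changed sign. CDF5 and ARR18 were at 0.0025 and 0.0053 after quantile normalization, and ARR19 at -0.027 with centred arrays, -0.011 with array weights and -0.014 with the arrays numbered 1 and 2 only. With an array left out, CDF5 ran from -0.013 to 0.0025, ARR18 from -0.013 to 0.0064, ARR19 from -0.014 to 0.013 and the root marker BGLU23, which is bright, from -0.018 to 0.13. None of these values was called.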

Other observations

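The measured genes closest to TOC1 on the chromosome were not called. AT5G61370, next to TOC1, had 4.09, 4.31 and 4.11 in TOC1-ox, against 4.11, 4.01 and 4.23 in WT (difference 0.05, limma adjusted p = 0.898). AT5G61400, on the other side with 1 gene between, had 3.57, 3.57 and 3.71 in TOC1-ox, against 3.28, 3.19 and 3.68 in WT (difference 0.23, adjusted p = 0.541). The groups of both genes overlapped, while TOC1 itself was 4.99 apart.

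Beside PRR5, AT5G24460 had 8.18, 8.04 and 8.35 in TOC1-ox, against 8.30, 7.97 and 7.70 in WT (difference 0.20, adjusted p = 0.711), and WT replicate 3, the highest WT array for PRR5, was the lowest there. On one side of PRR7, with 1 gene between, GSTL3, a lambda-class glutathione transferase gene, was higher on all TOC1-ox arrays, at 11.91, 11.88 and 11.86, against 11.45, 11.61 and 11.44 in WT. Its difference of 0.38 did not pass (adjusted p = 0.062). On the other side of PRR7, also with 1 gene between, AT5G02830 differed by -0.01 (adjusted p = 0.982). AT5G24480, the other neighbour of PRR5, differed by -0.0026 (adjusted p = 0.981). The nearest measured genes of PRR9, AT2G46780 next to it and AT2G46850 with 5 genes between, differed by -0.17 and -0.02 (adjusted p = 0.813 and 0.865). These neighbours were chosen by position alone, after the members' values were seen.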
